A study of Mus musculus with 3 samples.

Results

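A set of 10 genes of the Eph receptor and ephrin family was followed in single cells of mouse blastocysts, namely the receptors Epha1, Epha2, Epha4, Ephb2, Ephb3 and Ephb4 and the ligands Efna1, Efna4, Efnb1 and Efnb2. They were 10 of the 23154 gene rows in each count table, and they were picked because their levels in these cells had been seen to bear on the contrast of cells high and low in the simple epithelial keratins Krt8 and Krt18. Their values in that contrast are therefore described. A fit over all genes included them, but nothing is read from its calls of these genes. Tests of these genes are given for 2 comparisons made within a keratin class, whose groups were drawn without the keratins.

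The cells came from embryos of a mouse line with a histone H2B-mCherry reporter at Klf2, collected at embryonic day 2.5, cultured both without motion and on a shaker, and dissociated at the blastocyst stage, labelled embryonic day 3.5. Only mCherry-positive embryos were used, and single cells were picked by mouth pipette into 3 libraries of 96 barcodes (replicates 1, 2 and 3). All libraries belong to 1 group: the labels do not say which cells were shaken, which embryo a cell came from, or what its mCherry level was, and there is no untreated control. Of 288 barcodes, 225 had at least 2000 genes with a count and were used as cells, which were 83, 64 and 78 per library. The labels name no separate matings or cultures for the libraries, so every error and p-value here reflects differences between these 3 preparations, possibly only technical ones.

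Eph receptors are receptor tyrosine kinases that bind ephrins on the surface of a neighbouring cell. A-type ephrins are held in the membrane by a lipid anchor and B-type ephrins cross it, so a contact can send a forward signal into the cell with the receptor and a reverse signal into the cell with the ligand. Where receptor and ligand lie on opposite sides of a tissue boundary, this contact is known to keep the cell populations apart. In the blastocyst, the outer trophectoderm (TE) is a keratin-rich epithelium that encloses the cavity, while the inner cell mass (ICM) gives rise to the epiblast and the primitive endoderm.

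The results turn mainly on Epha4, Efnb2 and Ephb2, and their promoters are shown because the means of Epha4 and Efnb2 had opposite orders over the keratin classes and Ephb2 was lower in epiblast-leaning than in endoderm-leaning keratin-low cells of every library. Epha4 (ENSMUSG00000026235) spans 77367185 to 77515088 of chromosome 1, Efnb2 (ENSMUSG00000001300) 8617434 to 8661242 of chromosome 8 and Ephb2 (ENSMUSG00000028664) 136647539 to 136835988 of chromosome 4, all on the minus strand of GRCm38 (mm10) in GENCODE M21. Each sequence runs 5′ to 3′ on the minus strand from 250 bases before to 50 bases after the start of transcription in RefSeq, build GRCm38.p6, at chr1:77515039-77515338, chr8:8661193-8661492 and chr4:136835963-136836262. Capitals mark matches, on either strand, to 4 motifs. The motif of TEAD factors was searched as GGAATG, and that of the zinc-finger factors Gata2 and Gata3, called the Gata motif here, as AGATAA. The AP-2 motif was searched as GCCNNNGGC and that of KLF factors as CCACACCC, and no motif is contained in another.
Epha4 promoter: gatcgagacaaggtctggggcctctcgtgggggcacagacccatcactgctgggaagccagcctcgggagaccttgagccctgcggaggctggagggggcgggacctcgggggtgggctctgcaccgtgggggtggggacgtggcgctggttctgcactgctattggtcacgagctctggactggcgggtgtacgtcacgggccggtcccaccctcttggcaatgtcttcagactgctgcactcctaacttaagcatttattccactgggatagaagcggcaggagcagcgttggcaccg
Efnb2 promoter: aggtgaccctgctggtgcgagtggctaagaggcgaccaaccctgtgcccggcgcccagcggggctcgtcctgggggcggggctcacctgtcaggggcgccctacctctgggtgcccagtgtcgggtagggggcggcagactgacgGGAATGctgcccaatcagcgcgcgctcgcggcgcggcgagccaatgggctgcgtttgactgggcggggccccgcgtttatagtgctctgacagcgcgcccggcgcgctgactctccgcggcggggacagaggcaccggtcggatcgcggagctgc
Ephb2 promoter: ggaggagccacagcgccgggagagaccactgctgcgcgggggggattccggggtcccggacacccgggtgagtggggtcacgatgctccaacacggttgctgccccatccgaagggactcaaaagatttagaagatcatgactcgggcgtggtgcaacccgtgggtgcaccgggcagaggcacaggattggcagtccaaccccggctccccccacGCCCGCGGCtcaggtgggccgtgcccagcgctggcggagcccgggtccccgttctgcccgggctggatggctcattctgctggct
The Efnb2 window held 1 TEAD match, at position -105 from the start site, the Ephb2 window 1 AP-2 match at -35, and the Epha4 window none of the 4 motifs. Over 32851 RefSeq promoters of 300 bases, a TEAD match was present in 14.7%, Gata in 11.2%, AP-2 in 16.6% and KLF in 3.56%. The GC content was 64% for Epha4, 72.3% for Efnb2 and 68.7% for Ephb2, against a median of 52.7% over all promoters. The other promoters also differed from each other: Epha2 held 2 TEAD matches, Epha1 held 1 TEAD match, Efna4 held 1 Gata and 1 KLF match, 1 of the 2 windows of Efna1 held a KLF match, and Ephb3, Ephb4 and Efnb1 held none. A match is a string of letters and was not tested for binding.

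Within each library the cells were ranked by the log2 of CPM plus 1, where CPM is the count scaled to the total of the cell or class (counts per 1000000), of Krt8 and Krt18 together and divided into 3 classes of like size, called keratin-low (28, 22 and 26 cells), keratin-middle (27, 20 and 26) and keratin-high (28, 22 and 26). The highest keratin-low and the lowest keratin-middle cell had 153 and 158 CPM of keratin in replicate 1, 567 and 583 in replicate 2, and 376 and 379 in replicate 3. The bound of the keratin-high class lay between 923 and 1083 CPM, 2073 and 2205 CPM, and 3190 and 3982 CPM in the same order. These classes are ranges of a continuous value: 24, 23 and 18 cells lay within 0.5 log2 units of a bound. As to what the classes held, the summed CPM of 18 TE markers was 1546 to 4345 in keratin-high and 266 to 789 in keratin-low cells, and that of 14 ICM and epiblast markers was 262 to 532 and 1121 to 2008. Hand1 of the TE list was higher in keratin-low cells of every library (19.5, 17.9 and 29.2 against 1.91, 0.10 and 0.15 CPM). In replicate 1 alone so were Krt19 (176 against 1.27), Tead4 (238 against 112), Fgfr2 (215 against 60.8) and Eomes. The other TE markers were higher in keratin-high cells of every library. In replicate 1 Prdm14 made 412 CPM of the keratin-low ICM and epiblast sum. Pou5f1, Klf2 and Gdf3 were higher in keratin-high cells of that library. The summed CPM of 20 primitive endoderm markers was 615, 2706 and 1445 in keratin-high and 1319, 1506 and 1014 in keratin-low cells of replicates 1, 2 and 3. This sum did not separate the classes, but its genes went in different directions. Dab2 stood at 308, 1964 and 819 CPM in keratin-high and 64.2, 123 and 54.0 CPM in keratin-low cells. Rhox5 was also higher in keratin-high cells of every library. Gata4, Pdgfra, Col4a1, Col4a2, Lamb1, Serpinh1, Cubn, Hnf4a and Creb3l2 were higher in keratin-low cells of every library. The rest had no common direction or few counts. The epiblast marker Sox2 was at 0 in every library. Among markers of other cell types, haemoglobin genes were at 0 and 10 blood markers together reached 3.84 to 14.6 CPM in keratin-low and keratin-high cells. The 10 fibroblast and endothelial markers together reached 102 to 375 CPM in keratin-low and 16.2 to 23.1 in keratin-high cells, nearly all of it Pecam1, an adhesion molecule of endothelium that the inner cell mass also carries. Sums over 10 markers each were 869 to 1569 CPM in keratin-high and 156 to 259 in keratin-low cells for oviduct epithelium, nearly all of it Epcam, which epithelia share, 76.8 to 199 and 103 to 400 for cumulus and granulosa cells, and 36.2 to 188 and 27.8 to 233 for the oocyte. The cumulus and granulosa sum was nearly all Nr5a2 (92.8, 397 and 285 CPM in keratin-low cells). Amh, Foxl2, Inhba, Ptx3 and Hsd3b1 were at 0 in both classes. The oocyte sum was mostly Zp3 and Ooep. The part of these markers in the results was not tested.

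Some cells stood apart from their library. In replicate 1, 22 of the 28 keratin-low cells carried barcode numbers 33 to 64, and ribosomal protein genes took 8.09% of the counts in this class, against 17.3% in keratin-middle and 21.2% in keratin-high cells. The same share was 4.59% to 4.93% in the classes of replicate 2 and 13.6% to 16.0% in those of replicate 3. In replicate 3 none of the keratin-high cells carried barcode numbers 65 to 96. The meaning of a barcode number is not stated in the labels. Results that rest on these cells are given with and without barcode numbers 33 to 64, with the classes drawn anew among the remaining cells. Library totals were 30573711, 27610866 and 54444536 counts, and barcode numbers recur between libraries because the same set was used (46 of them held a cell in all 3).

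Epha4, a receptor that binds ephrins of both types, had most of its counts in keratin-low and keratin-middle cells. In the summed counts of a class, Epha4 stood at 34.3, 306 and 134 CPM in keratin-low cells of replicates 1, 2 and 3, at 100.5, 77.9 and 67.5 in keratin-middle cells, and at 21.3, 36.5 and 4.68 in keratin-high cells. Each library had its lowest value in the keratin-high class, and keratin-high and keratin-middle values did not overlap. The share of all genes that lay apart between these 2 classes was not counted. Between keratin-high and keratin-low cells it was 12.2%. Keratin-low and keratin-high values did overlap, since the keratin-low value of replicate 1 (34.3) lay under the keratin-high value of replicate 2 (36.5). The class means were 158 ± 137, 82.0 ± 16.9 and 20.8 ± 15.9 CPM (SD, n = 3 libraries), so the order low, middle, high holds for the means and the first 2 classes did not differ beyond their spread. The fitted difference of keratin-high minus keratin-low cells was -2.96 ± 0.88 on the log2 scale (estimate ± SE).

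The level of Epha4 was uneven between the cells of a class. Among keratin-low cells the median was 8.91, 188 and 55.5 CPM per cell and the highest cell reached 738, 1083 and 956 CPM in replicates 1, 2 and 3. Among keratin-high cells the median was 5.29, 0 and 0 CPM. The cell with most Epha4 counts held 20.8%, 24.8% and 28.1% of those of the keratin-low class and 23.4%, 46.7% and 46.2% of those of the keratin-high class in replicates 1, 2 and 3. At least 1 Epha4 count was seen in 59 of 76 keratin-low, 57 of 73 keratin-middle and 31 of 76 keratin-high cells.

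With barcode numbers 33 to 64 left out, Epha4 of replicate 1 lay between the other libraries in the keratin-low class. It then stood at 141, 211 and 103 CPM in keratin-low and 17.0, 22.2 and 25.5 CPM in keratin-high cells, with no overlap. How many of all genes lay apart without these barcodes was not counted. The fitted difference was -2.76 ± 0.33. Within sets of 32 barcodes of 1 library, of which 8 held cells of both classes, Epha4 was higher in the keratin-low cells in 7. The exception was the set 33 to 64 of replicate 1, with 14.6 CPM in 22 keratin-low cells and 78.5 CPM in its only keratin-high cell. By the same count Ephb4 was higher in keratin-low cells in 7 of the 8 sets, and Ephb3 and Efna1 in 6. Some sets held few cells of a class, and the share over all genes was not counted.

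**Figure D1:**
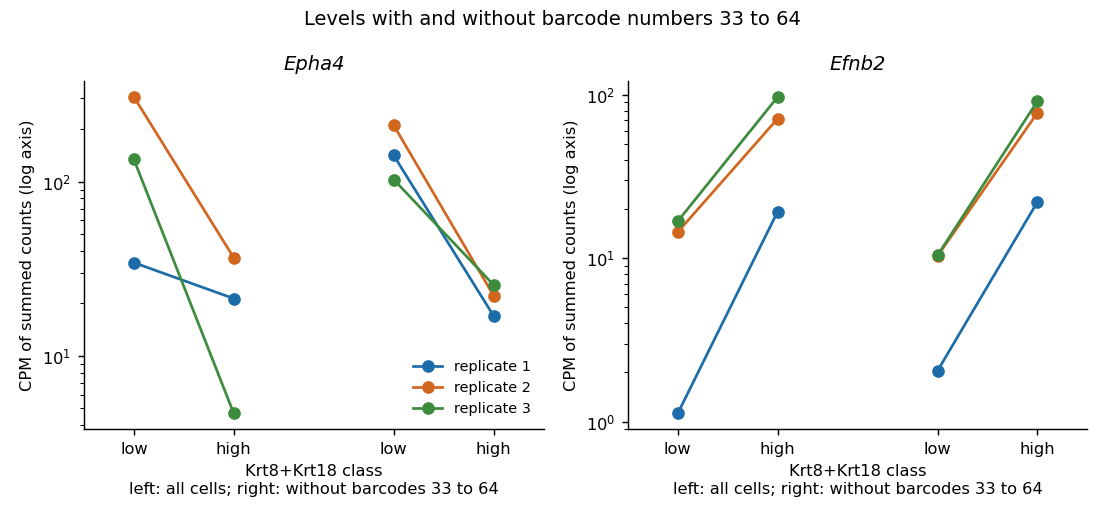
Summed CPM (log axis) of Epha4 and Efnb2 in keratin-low and keratin-high cells, with 1 line per library; on the left of each panel all cells, on the right without barcode numbers 33 to 64. Epha4 of replicate 1 goes from 34.3 to 141 CPM in the keratin-low class when those barcodes are left out, and the keratin-low and keratin-high values then no longer overlap; Efnb2 does not overlap either way.

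Efnb2, a transmembrane ligand of B-type receptors and of Epha4, had the reverse order of class means. It stood at 1.12, 14.5 and 16.8 CPM in keratin-low, 2.67, 52.1 and 35.6 CPM in keratin-middle and 19.3, 71.5 and 97.2 CPM in keratin-high cells of replicates 1, 2 and 3. In each library the level went up from class to class, and keratin-low and keratin-high values did not overlap. The class means were 10.8 ± 8.47, 30.1 ± 25.2 and 62.7 ± 39.7 CPM (SD, n = 3 libraries), and keratin-middle values overlapped with both neighbours. Keratin-high cells had 17.2, 4.95 and 5.77 times the keratin-low level in replicates 1, 2 and 3. The fitted difference was 2.88 ± 0.69 on the log2 scale.

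Efnb2 was also seen in more of the keratin-high cells. A count was present in 24 of 28, 21 of 22 and 24 of 26 keratin-high cells, which are shares of 85.7% (exact 95% interval 67.3 to 96), 95.5% (77.2 to 99.9) and 92.3% (74.9 to 99.1). In keratin-low cells the shares were 25% (10.7 to 44.9), 50.0% (28.2 to 71.8) and 57.7% (36.9 to 76.6). These intervals cover counting error among the cells of a library only, and they are not a test between the classes. Replicate 1 was the lowest library for Efnb2 in every class. Without barcode numbers 33 to 64, Efnb2 stood at 2.05, 10.3 and 10.4 CPM in keratin-low and 22.1, 77.7 and 91.6 CPM in keratin-high cells, a fitted difference of 3.14 ± 0.40. Within the 8 sets of 32 barcodes with both classes, Efnb2 was higher in keratin-high cells in 7, again except for barcodes 33 to 64 of replicate 1 (0.92 against 0 CPM). Epha1 and Efnb1 were higher in keratin-high cells in 6 of these sets, and the share over all genes was not counted.

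**Figure D2:**
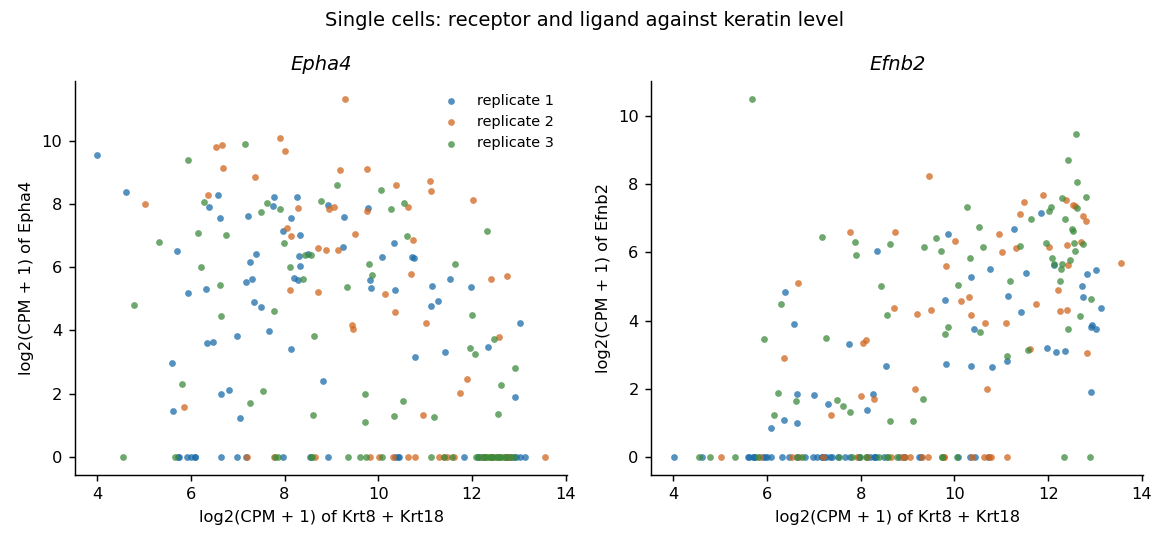
Each point is a cell (225 in all, coloured by library): log2(CPM + 1) of Krt8 and Krt18 together on the horizontal axis and of Epha4 (left) or Efnb2 (right) on the vertical axis. Epha4 points at high keratin levels lie mostly on 0, and Efnb2 points there lie mostly above it.

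Cells were next compared at equal depth by drawing 50000 counts from each cell and leaving out cells with fewer. Epha4 then kept a count in 45 of 68 keratin-low, 38 of 63 keratin-middle and 19 of 71 keratin-high cells, and Efnb2 in 8, 22 and 51 of the same numbers. Before and after thinning, keratin-high cells had the smallest share for Epha4 and the largest for Efnb2. Read as pairs, 38 of 68 keratin-low cells had Epha4 alone, 1 had Efnb2 alone, 7 had both and 22 neither. Of 71 keratin-high cells, 7 had Epha4 alone, 39 Efnb2 alone, 12 both and 13 neither. Keratin-middle cells lay between, with 28 of 63 with Epha4 alone, 12 with Efnb2 alone, 10 with both and 13 with neither. In each class most cells with a count of either gene had only 1 of them. Yet 7 of the 8 keratin-low cells with Efnb2 also had Epha4, and 12 of the 19 keratin-high cells with Epha4 also had Efnb2. These cells were pooled over 3 libraries, and whether the genes avoid each other within a class was not tested. Without thinning, both were present in 26 of 76 keratin-low, 31 of 73 keratin-middle and 26 of 76 keratin-high cells, and those shares also depend on depth.

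**Figure D3:**
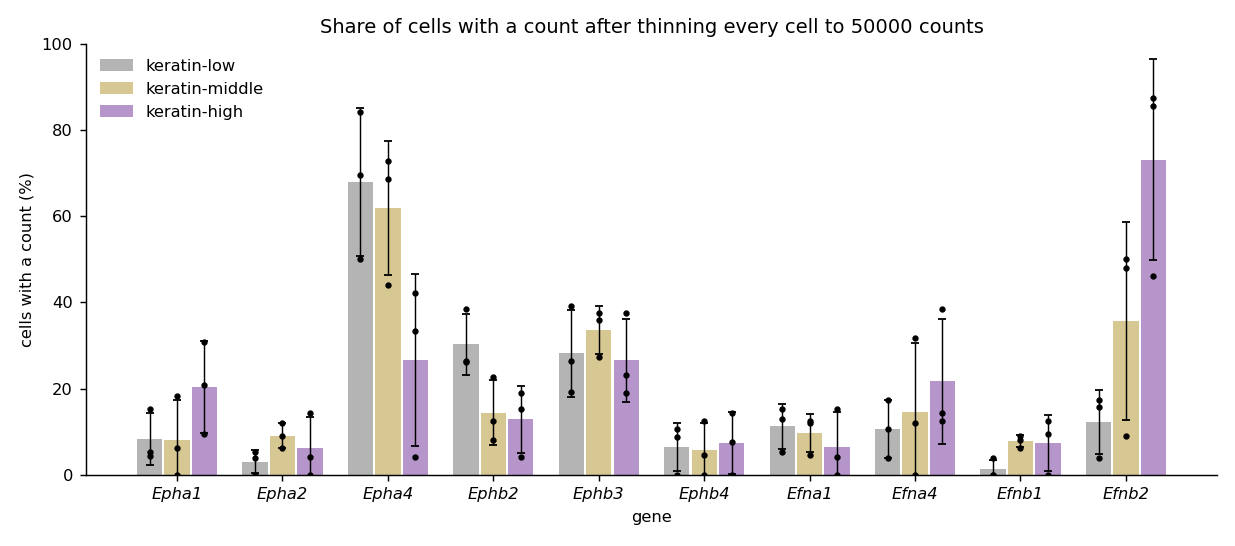
Share of cells with at least 1 count of each gene after thinning every cell to 50000 counts. Bars are means over 3 libraries, error bars the SD and points the libraries; Epha4 goes from 67.9% in keratin-low to 26.6% in keratin-high cells, Efnb2 goes from 12.3% to 73.1%, and the bars of Epha2, Ephb4 and Efnb1 stay under 10%.

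Among the B-type receptors, Ephb2 had a high value in 1 library. It stood at 98.1, 12.1 and 8.74 CPM in keratin-low, 20.4, 9.63 and 1.03 CPM in keratin-middle and 5.84, 11.1 and 1.86 CPM in keratin-high cells. The 98.1 CPM of replicate 1 came mostly from 1 cell, which held 1037 of the 1456 Ephb2 counts of that library (71.2%). Without it the keratin-low value of replicate 1 was 16.6 CPM. The fitted difference of keratin-high minus keratin-low cells was -2.20 ± 0.92 with this cell, -1.35 without it and -1.70 ± 0.89 without barcode numbers 33 to 64, and the classes overlapped. After thinning, 38.5%, 26.3% and 26.1% of keratin-low and 15.4%, 19.0% and 4.17% of keratin-high cells had an Ephb2 count.

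Ephb3, a further B-type receptor, did not differ between the keratin classes beyond its spread. Its level was 4.89, 13.5 and 23.1 CPM in keratin-low, 12.2, 14.9 and 18.4 CPM in keratin-middle and 10.3, 10.8 and 13.9 CPM in keratin-high cells. Replicate 1 was the lowest in each class, and the direction between keratin-low and keratin-high differed between libraries. The fitted difference was -0.07 ± 0.76 log2, and -0.50 ± 0.57 without barcode numbers 33 to 64. Ephb4, the receptor known for its preference for ephrin-B2, was scarce: 0.72, 10.2 and 3.34 CPM in keratin-low and 0.42, 4.99 and 0.05 CPM in keratin-high cells. It was higher in keratin-low cells in all 3 libraries, yet the classes overlapped, and the keratin-high value of replicate 3 was 1 count. In a class of 1 library, 3 counts amount to 0.148 to 0.438 CPM.

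The A-type receptors other than Epha4 were also scarce. Epha1 stood at 10.7, 2.05 and 0.71 CPM in keratin-low, 2.79, 1.90 and 0.59 CPM in keratin-middle and 10.2, 4.51 and 4.17 CPM in keratin-high cells. Keratin-high values were all above keratin-middle values, a pattern whose share over all genes was not counted. Of the keratin-low counts of replicate 1, 72.4% came from 1 cell. Epha2, a receptor known from epithelia, stood at 1.36, 6.55 and 0.07 CPM in keratin-low and 0.32, 10.7 and 1.31 CPM in keratin-high cells, with counts in 8 and 6 of 76 cells. Its direction differed between libraries.

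Of the remaining ligands, Efna4, a lipid-anchored ephrin, stood at 2.48, 4.59 and 11.2 CPM in keratin-low, 17.8, 0.73 and 8.62 CPM in keratin-middle and 23.1, 6.42 and 10.7 CPM in keratin-high cells. It was 9.32 times higher in keratin-high cells of replicate 1, 1.40 times in replicate 2 and 0.96 times in replicate 3, so the mean difference rested on replicate 1. Without barcode numbers 33 to 64 the fitted difference of Efna4 went from 1.08 ± 0.95 to 0.03. Efna1, the ligand first described for Epha2, stood at 4.49, 4.49 and 6.18 CPM in keratin-low and 6.79, 1.92 and 0.30 CPM in keratin-high cells, with no common direction. Its fitted difference was -0.27 ± 1.18 without barcode numbers 33 to 64. Efnb1, an X-linked transmembrane ligand, stood at 0.48, 0.39 and 0 CPM in keratin-low and 0.64, 0.29 and 3.67 CPM in keratin-high cells. It did not pass the filter on low counts and has no fitted value.

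**Figure D4:**
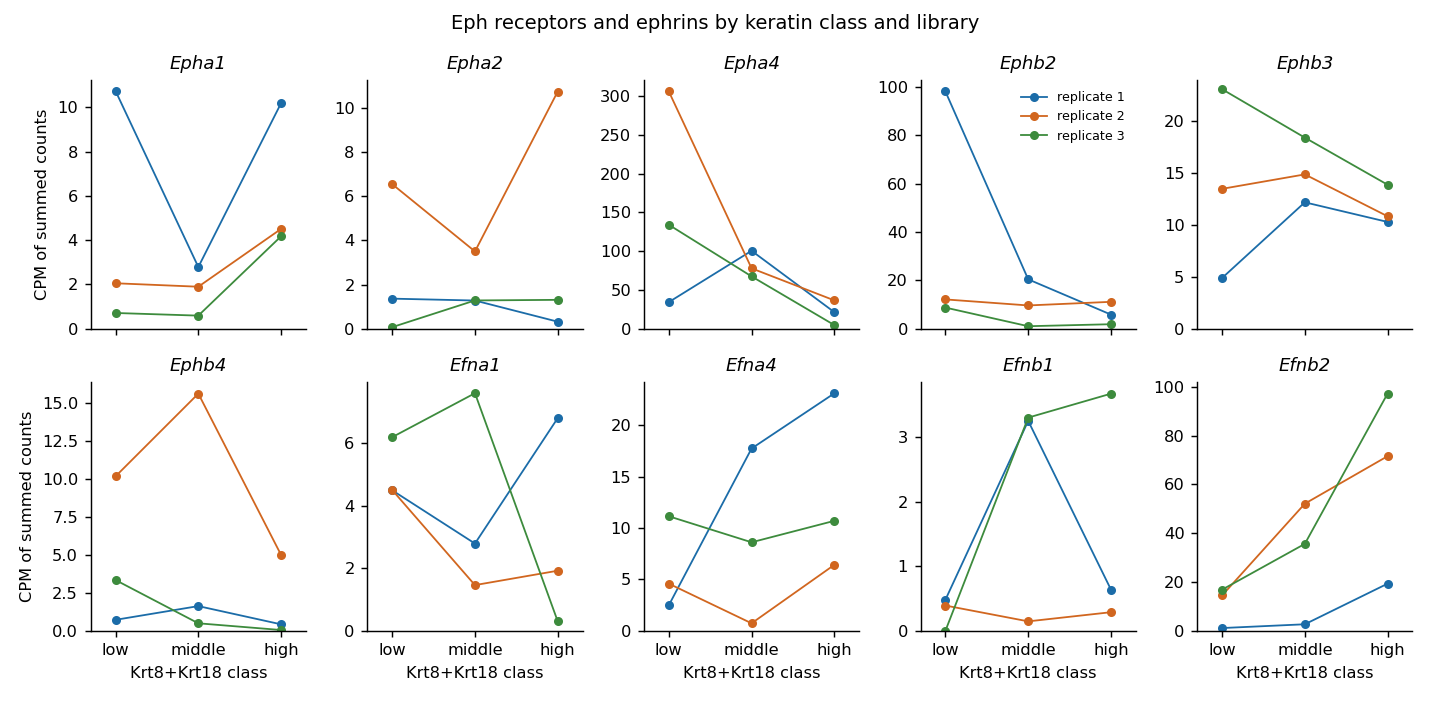
CPM of the summed counts of each class for the 6 receptors and 4 ligands, with 1 line per library and a linear axis from 0 that differs between panels. Efnb2 goes up from class to class in each library, Epha4 has its lowest value in the keratin-high class in each library, and the other genes change order between libraries or rest on few counts.

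In the fit over all genes of keratin-high against keratin-low cells (edgeR's quasi-likelihood test, library as a block, Benjamini-Hochberg adjusted p under 0.05), 21 of 12184 genes were called, a background of 0.172%, and 1247 had an unadjusted p under 0.05. Krt8 and Krt18, which define the classes, were among the 21. Of the 10 members 9 passed the filter and none was called, with 3 at an unadjusted p under 0.05; DESeq2 called 2 of the 9, against 876 of 12184 genes (7.19%). Groups of libraries did not overlap for 1 of the 9, Efnb2, against 12.2% of all genes. Without barcode numbers 33 to 64, 619 of 11167 genes (5.54%) were called and 2 of 8 members, Epha4 and Efnb2. These counts describe a contrast for which the members had been picked, and nothing is read from them. The median log2 difference of the 9 members was -0.07 and that of all genes -0.01.

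Over the 225 single cells, log2 CPM centred within each library correlated with the keratin level at r = 0.58 for Efnb2 (0.67, 0.56 and 0.54 in replicates 1, 2 and 3) and at r = -0.40 for Epha4 (-0.24, -0.52 and -0.47). Efna4 had r = 0.23, and the other 7 genes lay between -0.15 and 0.15. Cells of 1 library share its preparation and many differ in depth, so these values are descriptions.

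The genes most like Epha4 and Efnb2 over the same cells were sought among 4415 genes with at least 20 CPM on average in every library. For Epha4 they were Spic (r = 0.53), an Ets-family transcription factor, Rnf130 (0.50), a RING-finger ubiquitin ligase, and Ppm1a (0.48), a protein phosphatase. For Efnb2 they were Dppa1 (0.64), Rab17 (0.57), a small GTPase of epithelial vesicle traffic, and Gata3 (0.56), a transcription factor of the trophectoderm. Spic was on the list of ICM and epiblast markers and Dppa1 and Gata3 on that of TE markers. Further down for Epha4 was Col4a1 (0.45), which was on the list of primitive endoderm markers. Next for Efnb2 were Krt18 (0.56), which defines the classes, and Id2 (0.55) of the TE list. For the other 8 members the best correlation did not exceed 0.38.

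Keratin-low cells were then compared with each other, in groups drawn without the keratins. The cells of each library were split at the median of an epiblast score minus a primitive endoderm score, both from marker genes outside the family, which gave 14 and 14, 11 and 11, and 13 and 13 cells. The summed CPM of the 20 endoderm markers was 1435 to 2037 in the endoderm-leaning and 662 to 1045 in the epiblast-leaning cells. These markers made the score, so this separation was built in and does not show what the cells are. In endoderm-leaning cells Sox7 had no count in any library, and Sox17 had none in replicates 1 and 2. In replicate 1 all 14 endoderm-leaning cells carried barcode numbers 33 to 64, and their ribosomal share was 4.49% against 13.3%. In the same library TE markers summed to 973 CPM in endoderm-leaning and 523 in epiblast-leaning cells, and ICM and epiblast markers to 703 and 1725. The part of these values in the results was not tested. No gene of 10761 was called in the fit (0.0%; 394 at an unadjusted p under 0.05), while DESeq2 called 116 of the 10343 genes to which it gave an adjusted p (1.12%). Of the 10 members 8 passed the filter. None of them was called by edgeR, and DESeq2 called 1, Ephb2.

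Ephb2 was lower in epiblast-leaning cells of every library. It stood at 157, 21.5 and 20.4 CPM in endoderm-leaning and 12.7, 4.01 and 1.39 CPM in epiblast-leaning cells of replicates 1, 2 and 3. The groups did not overlap, which held for 1.62% of all genes in this direction. The log2 difference of epiblast-leaning minus endoderm-leaning cells was -3.52 ± 0.76 (SE), lower in 3 of 3 libraries, with an unadjusted p of 0.0011 and an adjusted p of 0.847 in edgeR's quasi-likelihood test. By DESeq2 the adjusted p was 0.000282, and over all settings it ran from 0.000282 to 1. The cell with most Ephb2 counts in replicate 1 was among the endoderm-leaning cells. Without it, replicate 1 had 19.8 against 12.7 CPM and the log2 difference was -2.51; without barcode numbers 33 to 64 it was -2.95 ± 1.13 (adjusted p = 0.997, edgeR). In the endoderm-leaning cells of replicates 2 and 3, 1 cell held 60.8% and 58.6% of the Ephb2 counts. At equal depth an Ephb2 count was present in 6 of 13, 3 of 8 and 6 of 10 endoderm-leaning and in 4 of 13, 2 of 11 and 0 of 13 epiblast-leaning cells. Without thinning the share was the same in both groups of replicate 1 (10 of 14) and of replicate 2 (3 of 11). It was larger in the endoderm-leaning cells of replicate 3.

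Epha4 and Efnb2 overlapped between the epiblast-leaning and endoderm-leaning cells. Epha4 stood at 12.1, 291 and 171 CPM in endoderm-leaning and 66.4, 319 and 111 CPM in epiblast-leaning cells, a log2 difference of 0.42 ± 0.67 (adjusted p = 0.965, edgeR). Epiblast-leaning cells were higher in 2 of 3 libraries. Efnb2 stood at 0.95, 20.2 and 25.4 CPM against 1.37, 9.48 and 11.5 CPM, a difference of -0.81 ± 0.94 (adjusted p = 0.965, edgeR), with replicate 1 against the other libraries. Ephb4 was at 0.41, 0 and 2.02 CPM in endoderm-leaning and 1.18, 19.0 and 4.17 CPM in epiblast-leaning cells. Its difference of 2.57 ± 1.95 did not pass the test (adjusted p = 0.965, edgeR), and 68.3% of the counts behind the 19.0 CPM came from 1 cell. Log2 differences of Epha1 (2.06 ± 2.01), Ephb3 (0.55 ± 1.30), Efna1 (-0.09 ± 1.21) and Efna4 (0.12 ± 1.33) were all within about 1 SE of 0. Without barcode numbers 33 to 64 the differences of Ephb3 (-0.53 ± 1.05) and Efna4 (-0.98 ± 1) had the opposite sign, and that of Epha4 was 0.14 ± 0.40. Epha2, with 11 and 74 counts, and Efnb1, with 10 and 0, did not pass the filter. With errors of this size a moderate difference of these genes could not have been told from none.

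Keratin-high cells were compared in the same manner. Those of each library were split at the median of a score of 10 TE transcription factors, and the upper and lower group had keratin levels of 4963 and 2865, 5141 and 4826, and 5397 and 5006 CPM in replicates 1, 2 and 3. No gene of 10824 was called (0.0%; 736 at an unadjusted p under 0.05), DESeq2 called 108 of the 10404 genes with an adjusted p (1.04%), and of the 8 members that passed the filter none was called by edgeR or DESeq2.

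Ephb3 was the only member among the 8 tested whose groups did not overlap. It stood at 16.8, 17.8 and 18.8 CPM in cells with a lower score and at 7.29, 6.42 and 9.71 CPM in cells with an upper score. Groups lay apart in this direction for 1.4% of all genes, and the Ephb3 value was lower in the upper group in 3 of 3 libraries. The log2 difference was -1.30 ± 0.65 (unadjusted p = 0.080, adjusted p = 0.738 in edgeR's quasi-likelihood test), -1.55 ± 0.88 without barcode numbers 33 to 64, and over all settings the adjusted p ran from 0.437 to 1. At equal depth 2 of 12, 3 of 10 and 5 of 11 cells of the lower group had an Ephb3 count, and 4 of 14, 1 of 11 and 4 of 13 of the upper group, so the share of cells did not follow the level in replicate 1.

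Efna4 went the other way, with 19.1, 3.96 and 4.30 CPM in the lower and 25, 7.99 and 16.1 CPM in the upper group. It was higher in the upper group in 3 of 3 libraries, with overlap, and the difference of 1 ± 0.69 did not pass the test (adjusted p = 0.816, edgeR). Efnb2 stood at 21.8, 57.1 and 82.6 CPM against 18.2, 80.7 and 109 CPM, a difference of 0.13 ± 0.35 (adjusted p = 0.953, edgeR), with the smallest error of the members. The Efnb2 difference was 0.06 ± 0.43 without barcode numbers 33 to 64. The log2 difference was 0.04 ± 0.89 for Epha1. For Epha4 it was 0.04 ± 0.60, but -2.13 ± 1.40 without barcode numbers 33 to 64 (adjusted p = 0.909, edgeR), and its sign was opposite in 7 of 14 other settings. A single cell held 97.6% of the Epha4 counts of the lower group in replicate 2 and 97.7% of those of the upper group in replicate 3. The errors were widest for Epha2 (-3.19 ± 2.04) and Efna1 (2.65 ± 1.92), whose lower or upper group was at 0 in at least 1 library. Ephb2 was lower in the upper group in 3 of 3 libraries, at 6.04, 20.3 and 2.64 against 5.74, 5.33 and 1.20 CPM, a difference of -1.14 ± 0.97 (adjusted p = 0.851, edgeR). The Ephb2 difference was -0.19 ± 1.51 without barcode numbers 33 to 64. Ephb4 had no count in the lower group of any library and 57 counts in the upper groups, and it did not pass the filter. These counts lay mostly in replicate 2, with 0.62, 8.15 and 0.09 CPM in the upper groups of replicates 1, 2 and 3.

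**Figure D5:**
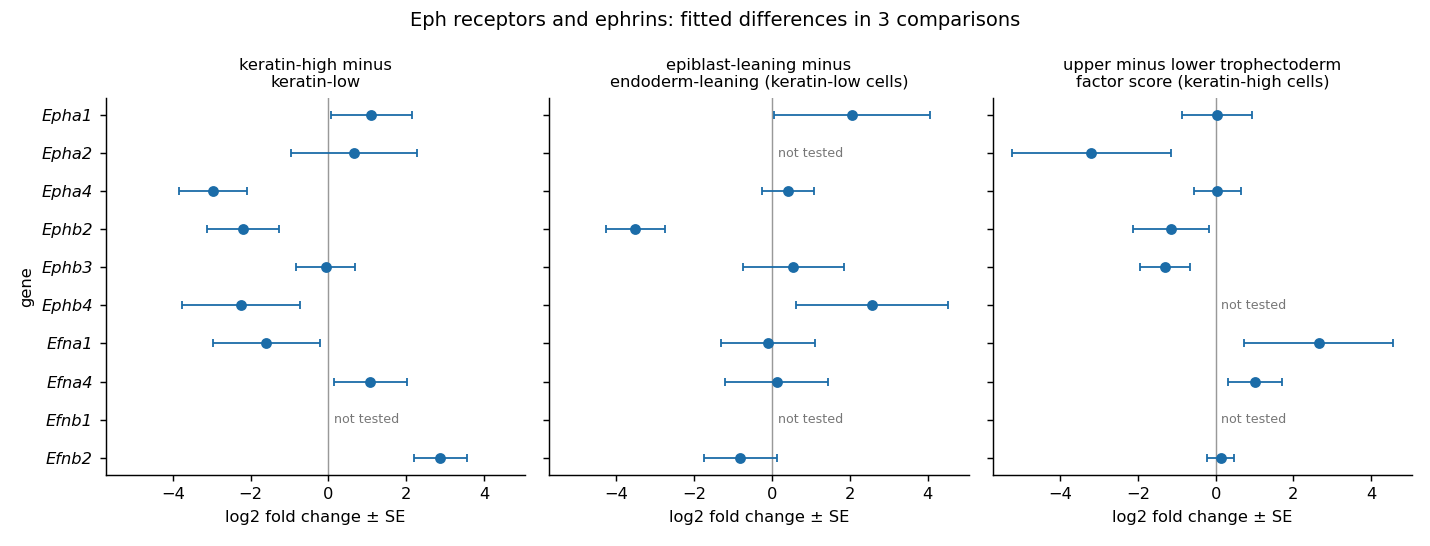
Log2 fold changes (points) with their standard errors (bars) from edgeR in 3 comparisons, for the 9, 8 and 8 of the 10 genes that passed the filter, with the others marked as not tested; the left panel is a description, since the genes were picked for that contrast. Efnb2 at 2.88 and Epha4 at -2.96 are the widest apart on the left, Ephb2 at -3.52 is the lowest in the middle panel and Ephb3 at -1.30 has the narrower bar of the negative values on the right.

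Of the other 12 genes of the family, 6 passed the filter between keratin-high and keratin-low cells. None of these was called by edgeR (1 at an unadjusted p under 0.05), and DESeq2 called 1, Epha7, against 7.19% of all genes. Epha7, a receptor of ephrin-A ligands, stood at 4.09, 11.2 and 2.56 CPM in keratin-low and 0, 0.58 and 0.15 CPM in keratin-high cells, without overlap, and at 331 CPM in keratin-middle cells of replicate 1. Its total is dominated by single cells: in replicate 1, 1 keratin-middle cell held 1938 of 2903 counts (66.8%), and in replicate 2, 1 keratin-low cell held 87.0% of the counts. Efna5, a lipid-anchored ligand, stood at 11.3, 15.1 and 7.39 CPM in keratin-low and 3.61, 30.0 and 9.86 CPM in keratin-high cells. Epha5, Epha6, Ephb6 and Efna3 passed the filter with no more than 5.68 CPM in keratin-low or keratin-high cells. Efna2 had no count in any retained cell.

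Genes that carry the signal further were taken from 3 lists. Of 32 adaptors and effectors of Eph receptors 30 were tested between keratin-high and keratin-low cells, of 10 Src family kinases and phosphatases 10, and of 15 genes of shedding and reverse signalling 13. None was called by edgeR, with 3, 1 and 1 genes at an unadjusted p under 0.05. Median log2 differences were -0.37, -0.27 and -0.07, against -0.01 over all genes. DESeq2 called 5 of the 53 tested genes, against 7.19% of all genes: Sh2d3c, Arhgef15 and Abl1 among the adaptors, and Grip1 and Sdcbp of the shedding list. Without barcode numbers 33 to 64, edgeR called 2 of 50, against 5.54% of all genes. Both were higher in keratin-high cells: the receptor phosphatase Ptprf and Sdcbp (syntenin, a PDZ protein that binds the tail of B-type ephrins). These genes were named after their values had been seen. Of the same lists no gene was called by edgeR or DESeq2 between epiblast-leaning and endoderm-leaning cells (1 of 47 tested at an unadjusted p under 0.05), nor between the upper and the lower group of the TE factor score (4 of 49).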

How the data were processed

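The deposited values were raw counts, whole numbers for each gene row and barcode that the authors had not normalized. Per the submitters' processing notes, CASAVA 1.8, HISAT2, HTSeq and the build mm10 were used; the notes give neither versions of HISAT2 and HTSeq nor the annotation, the strand or whether molecular identifiers were collapsed, so counts may be reads or molecules. Per the labels' protocols, cDNA was made by a modified Smart-seq2 with 8 nt barcodes, amplified for 17 and 5 cycles of PCR, and its 3' ends were sequenced. Strand matters for Epha1, Ephb4 and Efna4, whose exons overlap those of Zyx, Zan and 4731419I09Rik on the opposite strand. Counts of 3' ends are not scaled by length, so levels are not ranked between genes.

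Members and lists were chosen with earlier results of these data known. All 10 members were named; other genes of the family were named where they passed the filter, and like genes by correlation. Barcodes with at least 2000 genes were kept. Doublets were not called in these hand-picked cells; cells over 2.5 times the median total of their class were left out in an alternative. Counts were summed per library and class, filtered with filterByExpr, scaled by TMM and tested with edgeR 4.0.16 (R 4.3.3) with the library as a block, because both classes of a pair came from the same library; DESeq2 1.42.0 was an alternative. The threshold was a Benjamini-Hochberg adjusted p of 0.05. Standard errors of edgeR differences were calculated back from the test, as the absolute log2 difference over the square root of its F statistic. Classes were drawn on the cells that were tested, which the p-values do not include. The fit was run on simulated data with the same dispersion for all genes and changes only in genes with many counts. That run does not show how the fit performs for members with few counts. Library totals were 30573711, 27610866 and 54444536 counts, with medians of 286484, 345414 and 608734 per cell. Promoters of all 10 members were matched by symbol in RefSeq; of the pathway genes, Afdn matched no row under that symbol. A further list of downstream genes was part of the design and is not reported here.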

Additional observations from a re-analysis of the deposited data

Results flagged for a closer look

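Counts of 4 members were present in the 63 barcodes left out for having under 2000 genes, above the limit of 3 counts that a count of 0 allows. Epha4 had 29 counts there, Ephb2 26, Efnb1 17 and Efnb2 110. Of the Efnb2 counts, 100 lay in 6 barcodes of replicate 3, and the 16 Efnb1 counts of replicate 2 lay in 1 barcode. These barcodes held 47251, 92365 and 180100 counts in all in replicates 1, 2 and 3.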

How the results depend on the processing

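Between keratin-high and keratin-low cells, 21 genes were called. The number was 86 with the cells of each library split at the median, 0 with only the cells at the outer ends of the keratin range (of 4 equal classes), 8 with at least 4000 genes per cell, 211 without cells over 2.5 times the median total, 619 without barcode numbers 33 to 64 and 6 with cells scaled to equal totals. It was 876 by DESeq2 (376 higher, 500 lower, against 19 and 2), 88 without ribosomal protein genes (70 and 18), 63 without TMM and 162 without the filter (96 and 66). Without the replicate block no gene was called (0), and without 1 replicate 19 to 371, the highest without replicate 1. Chosen after seeing the data, fixed keratin bounds of 200 and 2000 CPM gave 10 and leaving out the cell with most Ephb2 counts gave 37. Among keratin-low cells the number went from 0 to 116 by DESeq2, 8 without TMM, which moved the median of all genes from 0.09 to 0.27, and 58 without the filter, and was 0 to 4 without 1 replicate. Among keratin-high cells it went from 0 to 108 by DESeq2 and 7 without the filter, and was 0 to 7 without 1 replicate. The cause was not tested. The block changed no other call. In all 16 alternatives between keratin classes Epha4 (-4.07 to -1.76) and Efnb2 (2.39 to 3.71) kept their direction, while Ephb3 changed it in 6 and Epha2 in 2 of 12. Among keratin-low cells Ephb2 kept its direction in 15 of 15 (-5.08 to -1.84) and passed the threshold in 2, DESeq2 and no filter (adjusted p = 0.0403, edgeR); Epha4 turned from 0.42 to -0.29 with cells scaled to equal totals and to -0.22 without replicate 1. Among keratin-high cells Ephb3 kept its direction in 14 of 14 (-2.35 to -0.49). The number of members with a higher mean or a higher thinned share in keratin-high cells stayed at 6 of 10 with a pseudocount of 5 and with 20000 counts per cell. With 3 libraries and few counts of most members, depth limits what these fits can show.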
